A study of Mus musculus with 3 samples.

Results

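The let-7 and miR-98 family was examined in matrix vesicles (MVs), the small vesicles that osteoblasts bud into the bone matrix. Members were the mouse features of the array named let-7a-5p to let-7g-5p, let-7i-5p and miR-98-5p. The rule used their names alone, and they make up 9 of the 1079 mouse miRNAs on the array. MVs came from MC3T3-E1 cells, an established osteoblastic line derived from mouse calvaria, after osteoid-like nodules had formed. Cultures were digested with 500 units/mL collagenase, vesicles were pelleted by ultracentrifugation, and the isolation was done 3 times independently. Total RNA (100 ng per isolation, Cy3-labeled) was hybridized to 1 miRNA microarray per isolation, which gives a single group (n = 3 arrays) without a comparison group. On β-glycerophosphate, a phosphate donor for mineral, the sources differ: the sample labels list it in the medium and the methods describe its absence from the cultures used for MVs.

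A miRNA is cut from a hairpin whose arms are named 5p and 3p, and usually one arm, the guide, is kept in an Argonaute protein while the other, the passenger, is degraded. The guide finds its target mRNAs mainly through its seed, the bases from position 2 to position 8. In the let-7 family the guide comes from the 5p arm. The family is conserved from worms to mammals, is kept low in stem cells by the RNA-binding proteins LIN28A and LIN28B, accumulates as cells differentiate, and represses growth-promoting genes such as Hmga2, Myc and the Ras genes.

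The mature sequences of all 9 members were found by name in the RefSeq miRNA table (GRCm38.p6). They are shown 5′ to 3′ with the seed in capitals, because the members differ so little that the array has to tell them apart by single bases.

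mmu-let-7a-5p: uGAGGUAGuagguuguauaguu
mmu-let-7b-5p: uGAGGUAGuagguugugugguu
mmu-let-7c-5p: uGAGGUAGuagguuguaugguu
mmu-let-7d-5p: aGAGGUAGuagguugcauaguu
mmu-let-7e-5p: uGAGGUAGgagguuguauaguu
mmu-let-7f-5p: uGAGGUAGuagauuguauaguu
mmu-let-7g-5p: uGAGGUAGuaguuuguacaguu
mmu-let-7i-5p: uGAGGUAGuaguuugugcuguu
mmu-miR-98-5p: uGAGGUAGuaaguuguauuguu

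All 9 are 22 bases long and share 1 seed. With positions counted from 1 at the 5′ end and let-7a-5p as the reference, let-7c-5p carried A19G alone, let-7e-5p U9G alone and let-7f-5p G12A alone. Let-7b-5p carried A17G and A19G, let-7d-5p U1A and U16C, let-7g-5p G12U and U18C, and miR-98-5p G11A and A19U. The member farthest from let-7a-5p was let-7i-5p, with G12U, A17G, U18C and A19U. Of the 36 pairs of members, 4 differed at 1 position and 10 at 2 positions, and the most distant pair, let-7d-5p and let-7i-5p, differed at 6. Of the 1679 mature names with 1 sequence in the table, 11 carried this seed. The other two were let-7k, which has no feature of that name on the array, and miR-1961, which has one.

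The members come from 12 genes, most of them in small clusters of the mouse genome (GRCm38.p6). Let-7a-5p (chr13:48538239-48538260, minus strand, gene Mirlet7a-1), let-7f-5p (chr13:48537889-48537910, Mirlet7f-1) and let-7d-5p (chr13:48536078-48536099, Mirlet7d) lie side by side. Let-7c-5p (chr15:85706616-85706637, plus strand, Mirlet7c-2) and let-7b-5p (chr15:85707325-85707346, Mirlet7b) lie together within the long non-coding RNA gene Lncppara. Let-7f-5p is also encoded on the X chromosome (chrX:151912353-151912374, plus strand, Mirlet7f-2), next to miR-98-5p (chrX:151913229-151913250), and both lie within the protein-coding gene Huwe1. Let-7c-5p is also encoded beside Mir99a (chr16:77599672-77599693, Mirlet7c-1), and let-7e-5p beside Mir99b and Mir125a within Spaca6 (chr17:17830366-17830387). Another let-7a gene, Mirlet7a-2 (hairpin chr9:41536716-41536811), lies within the lncRNA gene Mir100hg near Mir100. Let-7g-5p (chr9:106178846-106178867) lies within Wdr82, and let-7i-5p (chr10:122985698-122985719, minus strand) has no other gene of the RefSeq table around it. Let-7a-5p, let-7c-5p and let-7f-5p thus have more than 1 gene each, and the array has 1 feature for each mature sequence, so it does not say which gene a signal came from.

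Values are total gene signals, the linear intensity that the scanner software gives each miRNA with an error and a detection call. No normalization between arrays was applied, and a feature without detection has no level, only the knowledge that it was not called. The lowest detected signals of mouse miRNAs, used below as the limit for undetected ones, were 4.87, 4.39 and 4.41 in isolations 1, 2 and 3. The limit is a convention, since an undetected feature is not known to have lain below it. Every bound below holds under this convention only. Isolation 1 stood apart, with 86 mouse miRNAs detected against 179 and 164, and the means, counts and shares below are therefore also given without it or by isolation. The 7 negative controls were not detected on any array. Features were compared by signal, and different probes respond differently, so the orders below are orders of signal and not of RNA amount. With 3 arrays, an exact sign-flip test cannot give a two-sided p below 0.25, and no test was made.

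In MVs, 8 of the 9 members were detected in at least 1 isolation, against 16.7% of all mouse miRNAs. Every isolation held let-7a-5p, let-7b-5p, let-7c-5p and let-7i-5p (4 of 9, against 7.78% of all mouse miRNAs). The members from let-7d-5p to let-7g-5p were detected in isolations 2 and 3 but not in isolation 1. MiR-98-5p was not detected in any isolation. By array, the number of detected members was 4, 8 and 8, where 7.97%, 16.6% and 15.2% of all mouse miRNAs were detected. Without isolation 1, 8 members were detected in every remaining array.

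The brightest member was let-7b-5p, with signals of 59.5 ± 5.69 (error from the scanner software), 377.2 ± 29.1 and 314.7 ± 24.6 in isolations 1, 2 and 3. Its log2 signal averaged 7.58 ± 1.47 (SD, n = 3). Let-7c-5p, which differs from it at 1 position, had signals of 26.6 ± 3.61, 373.0 ± 31.6 and 300.1 ± 26.1 (7.17 ± 2.11 on the log2 scale). Without isolation 1 the log2 means were 8.43 for let-7b-5p and 8.39 for let-7c-5p. For a single miRNA, fewer vesicles that carry it and less of it per vesicle cannot be told apart on these arrays. The pair was level in isolations 2 and 3, whereas let-7b-5p was 2.24 times as bright as let-7c-5p in isolation 1.

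Let-7a-5p had signals of 10.9 ± 2.66, 202.9 ± 16.8 and 148.5 ± 12.6, a log2 mean of 6.11 ± 2.32 (SD, n = 3). Let-7i-5p had signals of 27.7 ± 3.96, 166.6 ± 12.9 and 139.9 ± 11.0 (6.43 ± 1.43). Without isolation 1 the log2 means were 7.44 for let-7a-5p and 7.25 for let-7i-5p, so their order by mean turned. Let-7i-5p was 2.53 times as bright as let-7a-5p in isolation 1, dimmer than it in isolation 2, and within the summed errors of it in isolation 3. The signal of let-7a-5p in isolation 1 had the largest relative error of the family, 24.4%, against 7.72% to 14.4% for all members in the other two arrays.

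The 4 members missed in isolation 1 were also the 4 dimmest of those detected in isolations 2 and 3. Let-7f-5p had signals of 103.6 ± 9.89 in isolation 2 and 75.1 ± 7.55 in isolation 3, and let-7d-5p 75.04 ± 7.37 and 59.7 ± 6.20. Let-7e-5p had 45.7 ± 5.17 and 35.1 ± 4.45, and let-7g-5p 28.01 ± 3.77 and 23.4 ± 3.37. In both arrays the order was therefore let-7b, let-7c, let-7a, let-7i, let-7f, let-7d, let-7e and let-7g, from a log2 mean of 8.43 for let-7b-5p to 4.68 for let-7g-5p over these 2 isolations.

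**Figure D1:**
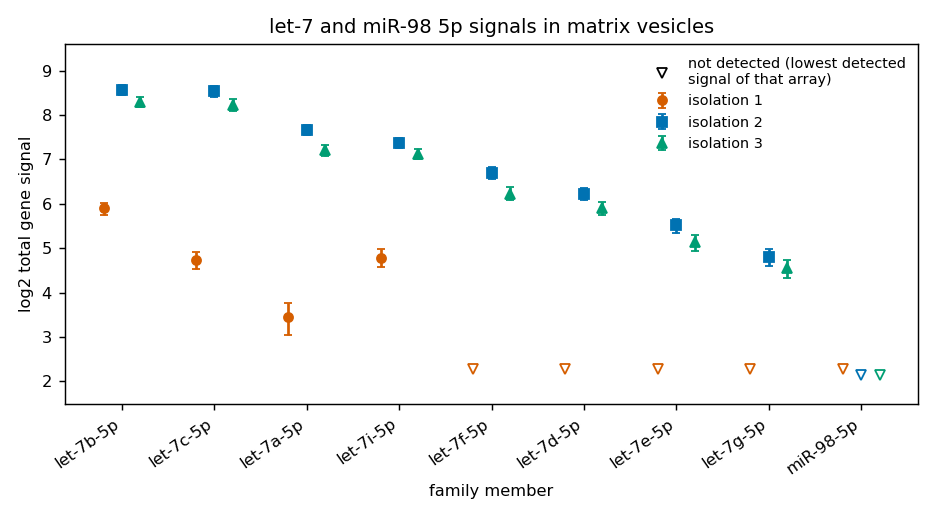
Log2 total gene signal of each family member (5p strand) in isolations 1, 2 and 3; bars are the error of the signal from the scanner software, and open triangles are undetected features drawn at the lowest detected signal of that array. Isolations 2 and 3 run in parallel down the family, isolation 1 lies below them for all 4 members it detected, and miR-98-5p was not detected in any.

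Of the 28 pairs of detected members, 26 had the same order of signals in every array where both were detected. The exceptions were let-7a-5p with let-7i-5p and let-7c-5p with let-7i-5p, and both turned in isolation 1 only, where let-7c-5p and let-7i-5p lay within their summed errors. Without isolation 1, all 28 pairs kept 1 order. In 25 pairs the signals lay farther apart than the sum of their errors, in the same order, in every array.

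Along this order, neighbors were separated to different degrees. Let-7b-5p exceeded let-7c-5p by 1.16, 0.02 and 0.07 on the log2 scale in isolations 1, 2 and 3, a mean of 0.42 ± 0.65 (SD, n = 3), and only in isolation 1 by more than the summed errors. Let-7c-5p exceeded let-7a-5p by 1.06 ± 0.21 (SD, n = 3), beyond the summed errors in all 3 arrays. Let-7a-5p minus let-7i-5p was -0.32 ± 0.89 (SD, n = 3), smaller than its spread. Let-7b-5p exceeded let-7i-5p by 1.11, 1.18 and 1.17 on the log2 scale in isolations 1, 2 and 3, a difference that isolation 1 shared with the others. In isolations 2 and 3 (n = 2), let-7i-5p exceeded let-7f-5p by a mean of 0.79, let-7f-5p exceeded let-7d-5p by 0.40, let-7d-5p exceeded let-7e-5p by 0.74 and let-7e-5p exceeded let-7g-5p by 0.65. Each of these differences was beyond the summed errors in both arrays.

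Near-identical miRNAs can share signal on an array. A dim member limits how much of a brighter one's signal its feature took up, for that pair only. Let-7c-5p, 1 base from let-7b-5p, had 98.9% of its signal in isolation 2 and 95.3% in isolation 3, which sets no useful limit. Let-7a-5p, 1 base from let-7c-5p, had 54.4% and 49.5% of the signal of let-7c-5p. Let-7e-5p, 1 base from let-7a-5p, had 22.5% of its signal in isolation 2 and 23.6% in isolation 3. Let-7f-5p, also 1 base from let-7a-5p, had 51.1% and 50.6%. Let-7g-5p, which differs from let-7i-5p at 2 positions, had 16.8% and 16.7% of its signal. MiR-98-5p, which differs from let-7a-5p at 2 positions, was not detected, so let-7a-5p was at least 46.2-fold brighter in isolation 2 and at least 33.7-fold in isolation 3. In isolation 1 this bound was 2.24-fold. The limit for an undetected feature is here the lowest detected signal of the array. Under this limit, let-7a-5p could have given the feature of miR-98-5p at most 2.16% and 2.97% of its own signal in isolations 2 and 3. The part that shared signal has in the other members' values was not tested.

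Among all detected mouse miRNAs, 7 of the 8 detected members lay above the median signal in isolations 2 and 3, but only let-7b-5p of the 4 in isolation 1. Let-7b-5p took place 24 of 86, 16 of 179 and 14 of 164 by signal on the 3 arrays. Its neighbors in isolation 1 were miR-1895 above (61.1) and the feature miR-720_v18.0 below (58.8). In isolation 2 miR-125b-5p lay above it (405.5) and let-7c-5p below (373.0), and in isolation 3 miR-720_v18.0 above (325.3) and miR-669n below (307.2). The brightest miRNA of each array, miR-5109, had signals of 4194, 12973 and 14059, so let-7b-5p reached 1.42%, 2.91% and 2.24% of it.

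Let-7c-5p was at places 46, 17 and 16, let-7i-5p at 44, 28 and 28, and let-7a-5p at 67, 26 and 27 in isolations 1, 2 and 3. Let-7a-5p thus exceeded 22.4% of the other detected miRNAs in isolation 1 and 86.0% and 84.05% in isolations 2 and 3. In isolations 2 and 3 let-7f-5p was at places 44 and 45, let-7d-5p at 60 and 57, let-7e-5p at 79 and 78 and let-7g-5p at 105 and 94. Let-7g-5p was the only detected member below the middle of the detected miRNAs in these 2 isolations.

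**Figure D2:**
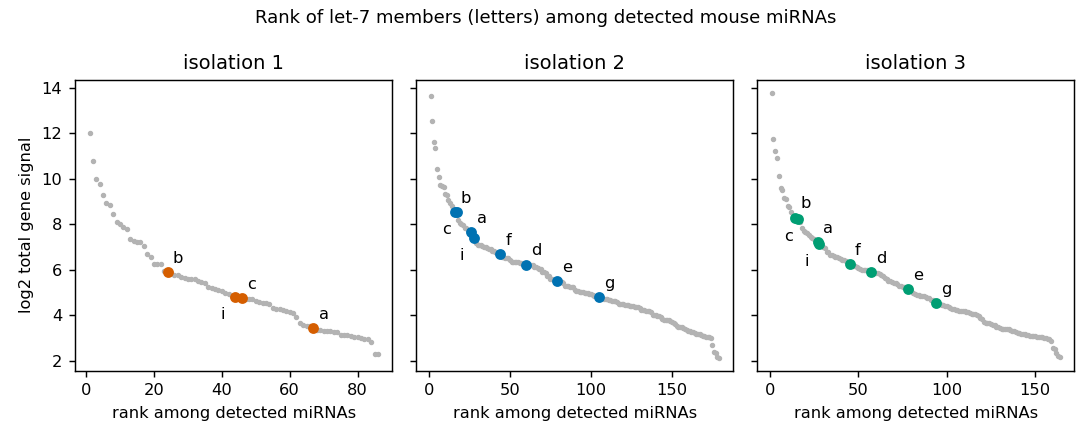
Log2 total gene signal of every detected mouse miRNA against its rank in each isolation (grey), with the detected let-7 members marked by their letter. In isolations 2 and 3 the members spread from place 14 to place 105 in the same order, while in isolation 1 only b, i, c and a were detected, at places 24 to 67.

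The family took 0.920% of the summed signal of detected mouse miRNAs in isolation 1, 3.23% in isolation 2 and 3.12% in isolation 3 (2.42% ± 1.30, SD, n = 3). Without isolation 1 the mean was 3.17%. Most of this sum came from the few brightest miRNAs of the array. With the 10 brightest of each array left out of the sum, the family held 3.89%, 11.2% and 12.03%.

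Within the family, let-7b-5p and let-7c-5p together gave 69.1%, 54.7% and 56.1% of the signal. These parts are of a sum over 4 detected members in isolation 1 and over 8 in isolations 2 and 3. Parts in isolation 1 are therefore larger for this reason alone, and the percentages are not directly comparable with it. Let-7b-5p alone gave 47.7% in isolation 1 and 27.5% and 28.7% in isolations 2 and 3. Let-7a-5p gave 8.75%, 14.8% and 13.5%, and let-7i-5p gave 22.2%, 12.1% and 12.8%. The makeup was nearly the same in isolations 2 and 3, and isolation 1 was set apart by larger parts of let-7b-5p and let-7i-5p, in a sum over fewer members. The 4 members detected in every isolation held 81.6% and 82.4% of the family signal in isolations 2 and 3.

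**Figure D3:**
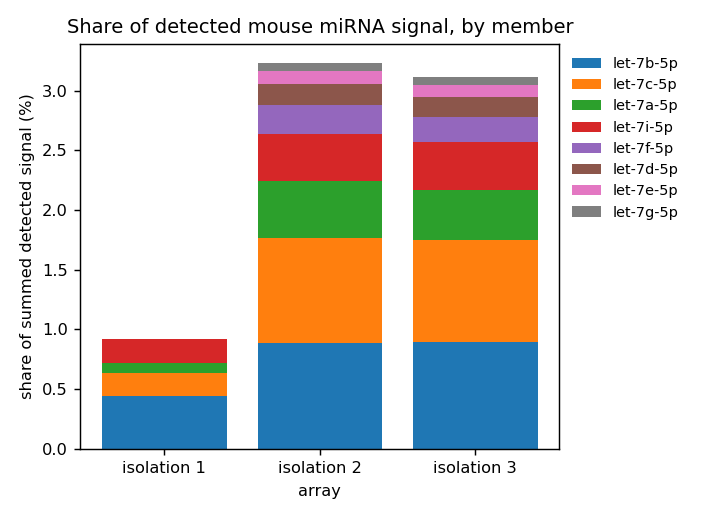
Share of the summed signal of detected mouse miRNAs (%) in each isolation, stacked by family member. The total is 0.920% in isolation 1, from 4 members, and 3.23% and 3.12% in isolations 2 and 3, from 8 members.

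The detected miRNAs were also grouped by seed. A sequence was found by name for 867 of the 1079 mouse features, and for 58 of 86, 137 of 179 and 123 of 164 detected ones. These carried 45.2%, 51.6% and 43.9% of the summed signal in isolations 1, 2 and 3, and the rest was left out of the grouping, including miR-5109. No seed had more features on the array than the let-7 seed (10, including miR-1961), and the next largest had 6. In isolation 2, 8 detected miRNAs shared the let-7 seed, and no other seed had more than 4. In isolation 3 the numbers were again 8 and 4, and in isolation 1 they were 4 and 1. The seed with 4 was that of miR-15 and miR-16, which has 5 features, so that its detected part in isolations 2 and 3 (4 of 5) equalled that of the let-7 seed (8 of 10). By summed signal the let-7 seed was at place 3 of 112 seeds in isolation 2 and 3 of 100 in isolation 3, among miRNAs with a sequence. The seeds above it there, those of miR-3963 and miR-5126 (named after their values were seen), were each carried by 1 detected miRNA. In isolation 1 it was at place 11 of 55. Of the detected miRNAs without a sequence, 7, 3 and 3 were brighter than the whole family in isolations 1, 2 and 3, so these places are not places among all detected miRNAs. MiR-1961 was not detected in any isolation.

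The passenger strands were examined by their own features. The array has 11 features for 3p strands of the family, and 0 of them were detected in any isolation. Of all 3p features, 12.4% were detected in at least 1 isolation, and with 11 features a count of 0 lies near that share. For 5p features this share was 18.2%. The 3p strands are shown for the 3 members with the brightest 5p strands in isolations 2 and 3, with bases 2 to 8 in capitals.

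mmu-let-7b-3p: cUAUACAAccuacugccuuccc
mmu-let-7c-1-3p: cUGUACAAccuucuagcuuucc
mmu-let-7a-1-3p: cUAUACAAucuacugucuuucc

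None of them carries the let-7 seed. The sequence of let-7a-1-3p is identical to that of let-7c-2-3p, so its feature stands for the 3p strands of both Mirlet7a-1 and Mirlet7c-2. With undetected features at the lowest detected signal of the array, let-7b-5p was at least 12.2-fold, 85.9-fold and 71.4-fold brighter than let-7b-3p in isolations 1, 2 and 3. Let-7c-5p was at least 5.46-fold, 84.9-fold and 68.1-fold brighter than let-7c-1-3p. Let-7a-5p was at least 2.24-fold, 46.2-fold and 33.7-fold brighter than let-7a-1-3p, and the same bounds hold against let-7a-2-3p. The lowest bounds in isolations 2 and 3 were those of let-7g-5p over let-7g-3p, 6.38-fold and 5.31-fold.

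Of the 11 pairs of a family 3p feature and its 5p feature, 10 had only the 5p strand detected and 1, that of miR-98, had neither. Among the 411 other arm pairs on the array, 106 had an arm detected. Of these, 58 had only the 5p strand (54.7%), 37 only the 3p strand and 11 both. An example with both was miR-199a, a miRNA of mesenchymal cells, whose 5p minus 3p difference was -1.48 and -1.63 on the log2 scale in isolations 2 and 3. The sign of this difference was not the same in all 11 such pairs. The family pairs share 5p features, since let-7a-5p and let-7f-5p have a pair of 3p features each.

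All 4 members detected in every isolation had higher signals in isolations 2 and 3 than in isolation 1. From isolation 1 to isolation 2 the difference was 4.22 on the log2 scale for let-7a-5p (18.6-fold), 3.81 for let-7c-5p (14.01-fold), 2.66 for let-7b-5p (6.34-fold) and 2.59 for let-7i-5p (6.02-fold). Their median was 3.24, whereas it was 1.37 over all 84 miRNAs detected in every isolation, with quartiles of 0.81 and 1.98. Ordered by this difference, let-7a-5p was at place 4, let-7c-5p at 5, let-7b-5p at 14 and let-7i-5p at 15 of 84. For the members missed in isolation 1 the difference was at least 21.3-fold for let-7f-5p, 15.4-fold for let-7d-5p, 9.38-fold for let-7e-5p and 5.75-fold for let-7g-5p. From isolation 2 to isolation 3 the 8 detected members differed by -0.46 to -0.25 on the log2 scale, with a median of -0.32, beside -0.39 over the 164 miRNAs detected in both.

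**Figure D4:**
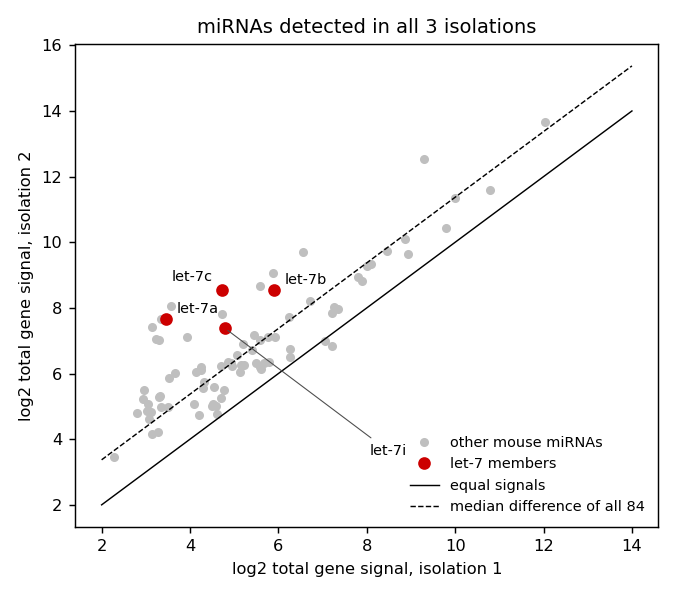
Log2 total gene signal in isolation 2 against isolation 1 for the 84 mouse miRNAs detected in all isolations, with the 4 let-7 members in red. The solid line marks equal signals and the dashed line the median difference of 1.37; let-7a, let-7c, let-7b and let-7i all lie above the dashed line.

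The absence of 4 members from isolation 1 was compared with miRNAs of like signal. Of 36 other miRNAs within 1.5-fold of let-7f-5p in isolation 2, 27 were detected in isolation 1. For let-7d-5p the numbers were 22 of 32, for let-7e-5p 20 of 32 and for let-7g-5p 17 of 45. Of the 80 miRNAs that were missed in isolation 1 but detected in the others, 3 had a higher signal than let-7f-5p in isolation 2.

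Base composition was set beside this difference. The percentage of G and C and the log2 difference between isolations 2 and 1 had a Pearson's r of -0.42 and a Spearman's rho of -0.47. These are over the 56 miRNAs detected in all isolations with a known sequence, across miRNAs of the same arrays. The 56 include the 4 members detected in every isolation, and the correlation without them was not calculated. The members hold 31.8% to 45.5% G and C. The 10 other miRNAs of this range that were detected in all isolations had a median difference of 1.41, and the 41 with more G and C had 1.17, beside 3.24 for the members. Of the miRNAs detected in isolations 2 and 3, isolation 1 also detected 10 of 28 others in the members' range and 41 of 86 above it. It detected 4 of 8 members, near the share over all such miRNAs, with or without a sequence (84 of 164). The part of base composition in the members' values was not tested.

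MiRNAs of mesenchymal and osteoblast cells also had their lowest summed signal in isolation 1. The same held for all detected mouse miRNAs together, with sums of 13558, 42478 and 35179 in isolations 1, 2 and 3. Of a list of 8 mesenchymal and osteoblast miRNAs, 4 were detected in isolation 1 and 6 in each of the others. The shares of all mouse miRNAs detected were 7.97%, 16.6% and 15.2% in isolations 1, 2 and 3. The summed signal of the list was 46.0, 986.3 and 772.9. The summed let-7 signal was 2.71, 1.39 and 1.42 times this sum. MiR-143-3p and miR-145a-5p of the list were not detected on any array. None of 5 leukocyte, 2 liver and 2 neuron miRNAs was detected, where 16.7% of all mouse miRNAs were detected in at least 1 isolation. With so few miRNAs on each list, their absence lies near that share. Of 3 red blood cell and serum miRNAs on the array, miR-451a and miR-144-3p were not detected, and miR-16-5p had signals of 24.96 and 20.9 in isolations 2 and 3. Of 3 muscle miRNAs, miR-206-3p had signals of 7.71, 37.4 and 21.7 in isolations 1, 2 and 3 and the other two were not detected. The part of other cell types in the let-7 signals was not tested.

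Several let-7 genes lie beside genes of the miR-99/100 and miR-125 families, whose 5p features were examined as cluster partners. Genes of miR-99a, miR-99b, miR-100 and miR-125a lay within 10000 bases of a let-7 gene. No gene of miR-125b did, and miR-125b-5p was included as a member of the miR-125 family. Of 5 partners, miR-125b-5p was detected in all isolations, with signals of 47.6, 405.5 and 271.0, and lay above all members in isolation 2 and between let-7c-5p and let-7a-5p in isolation 3. MiR-99a-5p, the neighbor of Mirlet7c-1, had 114.1 and 87.1 in isolations 2 and 3, against 373.0 and 300.1 for let-7c-5p. MiR-100-5p (30.5 and 17.2) and miR-125a-5p (22.7 and 16.8) were likewise missed in isolation 1, and miR-99b-5p, the neighbor of Mirlet7e, was not detected in any.

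The pattern of the members across the isolations was compared with that of the 80 other miRNAs detected in all of them. For each, the log2 signals were centered on their mean, and the Euclidean distance to the mean centered pattern of the 4 members (-2.11, 1.21 and 0.89 in isolations 1, 2 and 3) was calculated over the 3 arrays. The nearest were miR-3473b (0.19), miR-214-3p (0.20), miR-5100 (0.32), miR-125b-5p (0.35) and miR-199b-5p (0.36). The members themselves lay 0.40 (let-7c-5p) to 0.69 (let-7a-5p) from their own mean pattern. The 5 were picked as the smallest of 80 distances and the members were not, so their smaller distances follow from the choice.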

How the data were processed

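The authors deposited, for each of 3 arrays, a table of 1157 features holding a linear intensity per miRNA (the total gene signal) with its error, the detection call and the type of control. Per the labels, the tables were made with Agilent Feature Extraction 10.10.1.1; per the methods, the array was a SurePrint G3 mouse miRNA microarray. Undetected features carry a signal of 0.1 and an error of 1 and were treated as having no level. The isolations are numbered as in the titles of the samples, whereas the source name calls each of them replicate 1. Nothing states that the isolations came from separate cultures beyond their being independent, and 3 arrays limit the precision of every mean.

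From these tables, detection, log2 signals, ranks and shares were computed over the 1079 mouse features, without normalization between arrays. Means use the arrays in which a miRNA was detected. The named miRNAs were the members, their 3p strands, miRNAs with the same seed, 5 cluster partners, the 5 miRNAs of most similar pattern, the neighbors of the brightest member and lists for other cell types. The members and lists were chosen with earlier results of these data known. Sequences and loci are from RefSeq tables of GRCm38.p6, and the array tables name no assembly. Alternatives were other detection rules, sums, features ranked, shifts between arrays, values for undetected arrays, and each isolation left out. Functions were tested on simulated arrays. Calculations used Python 3.11.15, numpy 2.4.6, pandas 2.3.3 and matplotlib 3.10.9.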

Additional observations from a re-analysis of the deposited data

How the results depend on the processing

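The number of members detected in every array, 4, was 4 and 3 with a signal over 3 and over 6 times its error, and lay between 4 and 8 when single isolations were omitted (8 without isolation 1). The number detected in at least 1 array stayed at 8 under all of these. The number of 3p features stayed at 0 with a signal over 3 times its error and with single isolations omitted. Undetected features carry 1 fixed signal, so these rules could not raise either number. The family share of 2.42% became 9.03% with the 10 brightest miRNAs left out of the sum, because those 10 held most of it. It was 2.40% with viral features included and 2.15% with only the miRNAs detected in all arrays summed. With single isolations omitted it lay between 2.02% and 3.17%. The median difference between isolations 2 and 1, 3.24, was 1.86 after subtraction of the median of the 84 miRNAs detected in every isolation. It was 3.52 with undetected members at the lowest detected signal. The median difference between isolations 3 and 2, -0.32, became 0.033 after subtraction of the median over the same 84 miRNAs, not over the 164 detected in both. It was -0.29 over the members detected in every array. Pairs of 1 order numbered 25 to 34 under the alternatives and 26 to 28 when single isolations were omitted, where 34 counts pairs with miR-98-5p. Mean log2 signals of the 4 members missed in isolation 1 moved by more than their SD in all 4 alternatives of shift and missing value. Those of the other 4 moved in none, but values for undetected arrays and equal medians could not change their means. Their SD also includes isolation 1, whereas that of the missed members is over isolations 2 and 3 only, so the contrast was set by the calculation. No paired analysis was possible because all 3 isolations belong to a single group. Levels below the lowest detected signals are not resolved.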

Other observations

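MiR-202-3p, which shares bases 2 to 7 but not base 8 of the let-7 seed, was named after its values were seen. It was not detected in isolation 1 and had signals of 24.96 and 8.28 in isolations 2 and 3. Its signal thus fell below that of let-7g-5p (28.01 and 23.4), the dimmest detected member, in both.

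In isolation 1 the order of the detected members was also their order by content of G and C, with let-7c-5p and let-7i-5p tied in content. Let-7a-5p (36.4% G and C), let-7c-5p and let-7i-5p (40.9% each) and let-7b-5p (45.5%) had signals of 10.9, 26.6, 27.7 and 59.5 there, which are 4 values only. Over the 8 detected members, Pearson's r between G and C content and log2 signal was 0.40 in isolation 2 and 0.44 in isolation 3. Over all 58, 137 and 123 detected miRNAs with a sequence it was 0.03, 0.02 and 0.02 in isolations 1, 2 and 3. These are descriptions across miRNAs that share an array and near-identical sequences.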
